A study of Mus musculus with 17 samples.

Results

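The genes described here are 41 genes of cell division, measured in a fat depot of mice on 2 high-fat diets. They were chosen by name: 28 act in mitosis, 11 in DNA replication and the supply of its building blocks, and 2 are G1 cyclins. Every gene spot of the array whose gene name was one of these symbols, or an older name of one (Cdc2a for Cdk1), was taken, which gave 66 of the 41174 gene probes and at least 1 probe for all 41 members. The array as a whole named 27573 genes. RNA came from epididymal white adipose tissue, the fat beside the testis, of adult male wild-type C57BL/6J mice that ate a purified high-fat diet (30% of energy) over 13 weeks. The groups differed in the glycemic index of its carbohydrate, which was low for 8 mice (LGI) and high for 9 (HGI). No group on a low-fat diet was analysed here. The study asked how gene expression in this fat differs with glycemic index when both diets are rich in fat.

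Cells that divide copy their DNA in S phase and separate the copies in mitosis. Cyclins switch on kinases that drive both steps, the MCM proteins open the DNA for copying, and kinesins and kinetochore proteins move the chromosomes. Most of these genes are transcribed only in cycling cells: E2F factors switch on replication genes near the start of S phase, and the DREAM and MuvB complexes, with B-Myb and FoxM1, time the mitotic genes. Mature fat cells rarely divide. In adipose tissue of obese mice, macrophages, adipocyte progenitors, endothelial cells and lymphocytes can divide, and macrophages are known to proliferate in place. In whole tissue, more dividing cells and more RNA per dividing cell cannot be told apart.

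Each mouse's RNA, in Cy5, shared an array with a common Cy3 pool made from all the samples. Values are log2 ratios of a mouse to that pool, and differences are HGI minus LGI on the log2 scale. Cy5 was well above background for 54.2% to 66.7% of gene spots per array, and precision is limited by how many arrays there are. The arrays of HGI 9 and HGI 10 stood apart from the rest: their mutual correlation was 0.81, against -0.05 to 0.14 with any other array and 0.37 to 0.83 among the rest. Their mean log2 ratio over 9 genes of epididymis and seminal vesicle was 0.19 and 0.15, against -3.38 to -3.18 in the LGI mice. LGI 9 had the highest mean over 3 genes of motile cilia, 1.37. The comparisons are therefore given with and without HGI 9 and HGI 10. All 9 adipocyte markers, Adipoq and Plin1 among them, were well above background on all 17 arrays, as were 17 of 18 macrophage markers, all 8 endothelial and all 9 fibroblast and progenitor markers. Of 12 male germ cell markers, 4 were detected on all arrays and Ddx4 and Stra8 on none.

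Transcripts of the replication genes were detected almost throughout, and those of the mitotic genes less completely. A member counted as detected on an array where any of its probes was well above background in Cy5. Of the 11 replication members, 10 were detected on all 17 arrays, and the remaining one, Tk1, on 16. Of the 28 mitotic members, 14 were detected on all arrays, 12 on some and 2, the kinesin Kif2c and the checkpoint kinase Ttk, on none. Both G1 cyclins were detected on all arrays. Among the partly detected members, Ccnb1 was detected in 2 LGI and 7 HGI mice, Tpx2 in 2 and 6, Nusap1 in 4 and 7, and Cdk1, the kinase that starts mitosis, in 2 and 4. Bub1b, a checkpoint kinase, went the other way, with 4 LGI mice and 1 HGI mouse. Counted by probe, 28 of the 66 member probes were detected on some arrays only, and 20 of these, 71.4%, had the larger share of detected arrays in HGI. Over all probes detected on some arrays the share was 51.9% of 15005. These counts are a description and were not tested.

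**Figure D1:**
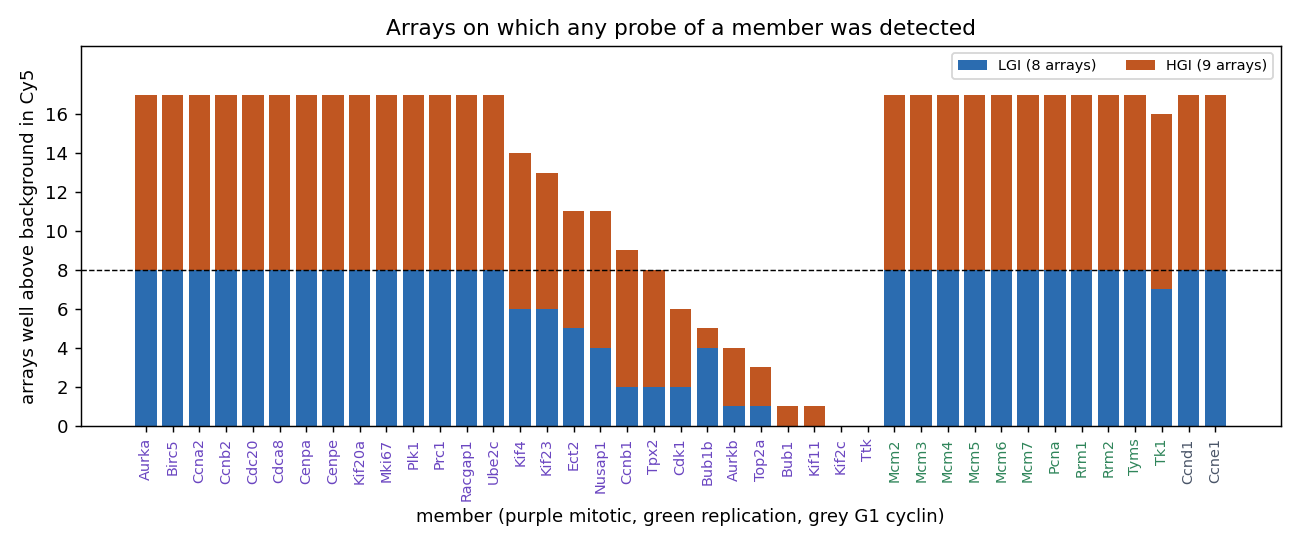
Number of arrays (y axis, of 17) on which at least 1 probe of each of the 41 members was well above background, stacked for the LGI arrays (blue) and the HGI arrays (orange); the dashed line marks 8 arrays. The 11 replication members reach 16 or 17 arrays, while the mitotic members run from 17 down to 0 for Kif2c and Ttk.

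Genes entered the test if 8 or more arrays had one of their probes well above background, and the brightest such probe stood for the gene. This left 18134 genes, of which 33 were members: 20 mitotic, all 11 replication and both G1 cyclins. The 8 members not tested were Top2a, Cdk1, Bub1, Bub1b, Aurkb, Kif11, Kif2c and Ttk. Top2a, the enzyme that untangles DNA before chromosomes part and a common marker of dividing cells, was detected in 1 LGI and 2 HGI mice. Aurkb, the kinase of the chromosomal passenger complex, was detected in 1 and 3. Kif11, the motor that pushes the spindle poles apart, and the checkpoint kinase Bub1 were each detected in 1 HGI mouse. No level is given for these 8. Because a dim gene can pass this filter through 1 diet alone, as the probes of Nusap1, Ccnb1 and Tpx2 mostly did through HGI, counts over the tested members are set beside those over all members.

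The members lay higher in HGI more often than not, by small amounts, and none passed the test. With limma's test and Benjamini-Hochberg adjustment over all genes, 0 members and 0 of the 18134 genes were called, higher (0% of the genes) or lower (0%), and the smallest adjusted p of a member was 0.52. At an unadjusted p under 0.05, 9 members were higher and 0 lower, where 3.96% of all genes were higher and 3.78% lower. The difference was above 0 for 28 of 33 members, against 52.6% of all genes tested. For the mitotic members it was above 0 in 17 of 20, with a median of 0.14, and for the replication members in 9 of 11, with a median of 0.08. The median over all genes tested was 0.01. Without HGI 2 the replication median was 0.04. The direction of the replication members depended on which values were used: with the authors' deposited values their median was -0.01, with 4 of 10 above 0, while the mitotic median was 0.11, with 14 of 15 above 0. The scanner's processed signals gave 0.20 for the replication and 0.30 for the mitotic members, and intensities without background correction gave 0.05 and 0.09. With no filter on dim probes, so that all 41 members had a value, 23 of 28 mitotic and 9 of 11 replication members were above 0, against 52.3% of 27573 genes, and the mitotic median was 0.11. The 13 mitotic members whose probe was detected on all 17 arrays were all above 0, from 0.02 to 0.35 with a median of 0.18, and for the other 7 tested ones 4 were above 0 and the median was 0.03. The difference between the mitotic and the replication median was not tested.

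**Figure D2:**
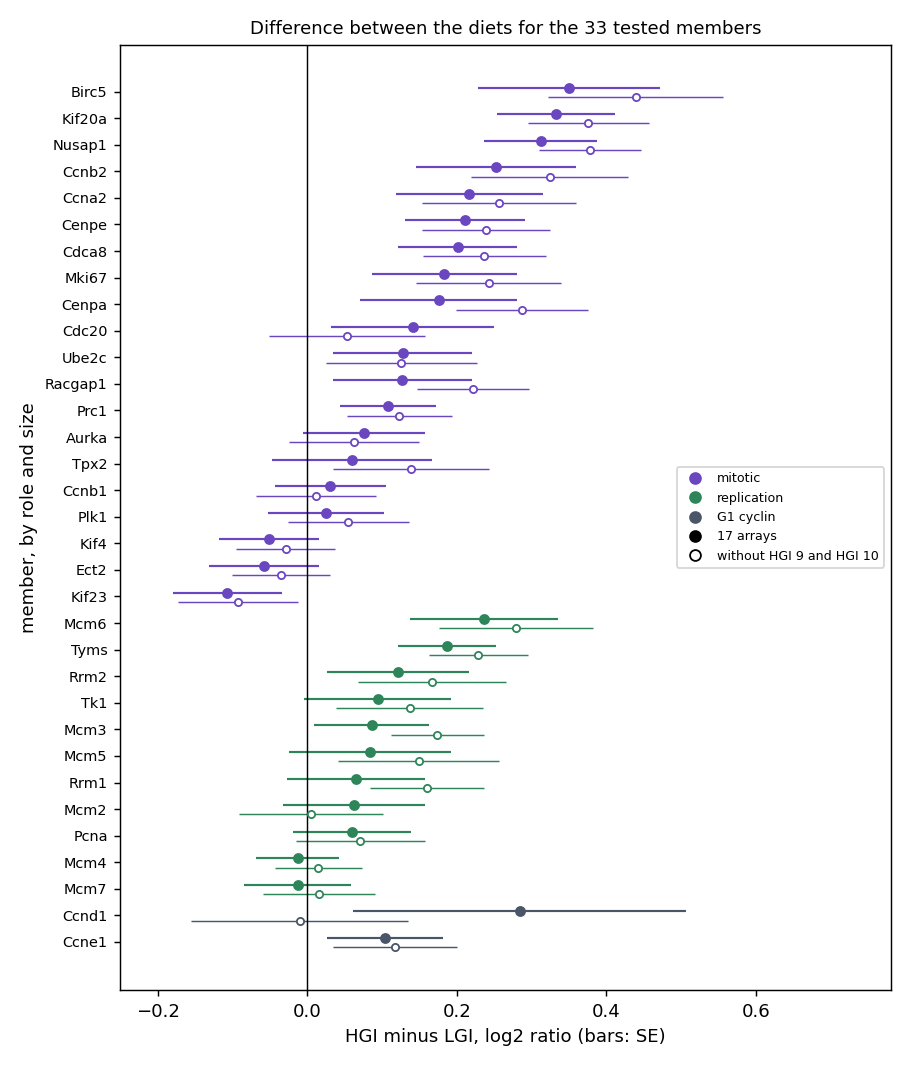
HGI minus LGI difference of the log2 ratio (x axis) for each of the 33 tested members (rows, by role and size), over 17 arrays (filled) and without HGI 9 and HGI 10 (open); bars are standard errors. 28 of the 33 filled points lie above 0, from -0.11 for Kif23 to 0.35 for Birc5, and Ccnd1 moves from 0.28 to -0.01 when HGI 9 and HGI 10 are left out.

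The sequence before the start of 6 members is shown because genes of this kind are known to be timed through short promoter motifs. Any relation of the motifs to the members' values was not tested. RefSeq's GRCm38.p6 table held a window for 35 of the 41 members, and the 250 bases before the first listed start were searched on both strands. Letters in capitals mark the CCAAT box (CCAAT), which binds NF-Y, the cell cycle homology region (TTTGAA or TTTAAA), which MuvB complexes bind, and the E2F site (TTTCCCGC, TTTCGCGC, TTTGCCGC or TTTGGCGC). E2F matches on opposite strands may overlap. The first 5 are the 3 mitotic and 2 replication members with the smallest p that had a window, and Ccnb2 was added after its matches were seen.
Nusap1, chr2:119618048-119618297 (+ strand): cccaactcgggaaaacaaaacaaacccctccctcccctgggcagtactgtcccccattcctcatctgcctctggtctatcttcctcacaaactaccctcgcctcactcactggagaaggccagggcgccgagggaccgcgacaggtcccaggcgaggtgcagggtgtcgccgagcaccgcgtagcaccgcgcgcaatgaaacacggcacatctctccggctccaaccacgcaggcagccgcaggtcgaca
Birc5, chr11:117848987-117849236 (+ strand): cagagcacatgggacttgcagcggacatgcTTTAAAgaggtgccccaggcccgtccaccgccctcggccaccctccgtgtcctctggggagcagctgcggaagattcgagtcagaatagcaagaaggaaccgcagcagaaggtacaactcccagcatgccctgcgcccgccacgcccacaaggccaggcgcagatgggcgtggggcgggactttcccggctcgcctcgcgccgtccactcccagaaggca
Cenpe, chr3:135212313-135212562 (+ strand): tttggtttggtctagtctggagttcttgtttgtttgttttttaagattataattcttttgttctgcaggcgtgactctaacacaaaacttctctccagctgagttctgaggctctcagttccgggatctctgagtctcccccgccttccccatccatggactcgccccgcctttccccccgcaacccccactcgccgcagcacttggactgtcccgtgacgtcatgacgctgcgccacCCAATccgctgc
Tyms, chr5:30073626-30073875 (- strand): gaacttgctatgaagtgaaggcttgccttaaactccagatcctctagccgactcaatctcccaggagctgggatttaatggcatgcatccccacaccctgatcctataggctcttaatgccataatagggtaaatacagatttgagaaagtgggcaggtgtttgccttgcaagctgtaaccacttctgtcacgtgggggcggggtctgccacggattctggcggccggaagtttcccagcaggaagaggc
Mcm6, chr1:128359706-128359955 (- strand): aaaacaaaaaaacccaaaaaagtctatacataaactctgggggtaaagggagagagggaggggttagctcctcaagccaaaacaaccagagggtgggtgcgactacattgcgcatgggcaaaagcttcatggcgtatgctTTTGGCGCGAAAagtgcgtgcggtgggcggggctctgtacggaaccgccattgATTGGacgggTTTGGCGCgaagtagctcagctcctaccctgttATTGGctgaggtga
Ccnb2, chr9:70421555-70421804 (- strand): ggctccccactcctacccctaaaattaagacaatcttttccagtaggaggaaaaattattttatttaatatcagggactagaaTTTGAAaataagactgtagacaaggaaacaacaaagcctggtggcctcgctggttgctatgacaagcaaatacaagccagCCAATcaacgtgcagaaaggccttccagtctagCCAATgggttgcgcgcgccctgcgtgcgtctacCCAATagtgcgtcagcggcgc

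Among the windows chosen by p, that of Mcm6 holds the most matches. The window of Ccnb2 was chosen after its matches were seen, so it is not ranked. Mcm6 has 3 E2F matches, the first 110 bases before the start, and 2 CCAAT boxes, and Ccnb2 has 3 CCAAT boxes and 1 cell cycle homology region. Birc5 has 1 cell cycle homology region and Cenpe 1 CCAAT box, while the windows of Nusap1 and Tyms hold none of these letters. Over the members with a window, a CCAAT box was found for 21 of 24 mitotic (87.5%) and 8 of 10 replication members (80%), against 34.5% of 27025 genes. The cell cycle homology region was found for 13 of 24 mitotic members (54.2%) and 3 of 10 replication members (30%), against 25.5% of genes, and both motifs together for 11 mitotic members (45.8%) against 9% of genes. An E2F site was found for 1 mitotic member (Cdk1) and 3 replication members (Mcm5, Mcm6 and Mcm7), against 1.91% of genes. A match is a run of letters and not a bound site, and motifs beyond these 250 bases were not searched.

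The cyclins of mitotic entry and their kinases differed between the diets by 0.02 to 0.25, none past the threshold. Ccnb2, a B-type cyclin that activates Cdk1, ran from -0.56 to 0.04 in LGI with a median of -0.29, and from -0.37 to 0.55 in HGI with a median of -0.09. HGI 4 was highest, 8 of 9 HGI mice lay above the LGI median, and the groups overlapped. The difference was 0.25 ± 0.11 (SE), adjusted p = 0.60. Ccna2, the cyclin of S phase and early mitosis, ran from -0.53 to 0.06 in LGI (median -0.11) and from -0.15 to 0.40 in HGI (median -0.02). Its 2 highest mice, HGI 4 and HGI 6, were both at 0.40, and 5 of 9 HGI mice lay above the LGI median, and the difference was 0.22 ± 0.10 (adjusted p = 0.63). Ccnb1, the main partner of Cdk1, ran from -0.29 to 0.23 in LGI and from -0.16 to 0.12 in HGI, with medians of -0.01 in both. Its difference was 0.03 ± 0.07 although it was detected in more HGI mice. The kinases Plk1 and Aurka, which prepare the spindle poles, differed by 0.02 ± 0.08 and 0.08 ± 0.08.

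Among the genes of the centromere and the chromosomal passenger complex, Birc5, Cdca8, Cenpe and Cenpa had differences of 0.18 to 0.35 and no call. Birc5, or survivin, the passenger subunit that docks the complex on the centromere, ran from -0.54 to 0.12 in LGI with a median of -0.24. In HGI it ran from -0.29 to 0.54 with a median of 0.21, and 7 of 9 HGI mice lay above the LGI median while no LGI mouse lay above the HGI median. HGI 1, HGI 7, HGI 9 and HGI 10 fell inside the LGI range. The difference was 0.35 ± 0.12, a 1.27-fold ratio, adjusted p = 0.54. Cdca8, or borealin, its partner in that complex, ran from -0.30 to 0.31 in LGI (median 0.10) and from 0.03 to 0.45 in HGI (median 0.30). Its difference was 0.20 ± 0.08, adjusted p = 0.57, and LGI 4 was the lowest mouse. Cenpe, the kinetochore motor that carries chromosomes to the spindle equator, ran from -0.32 to 0.10 in LGI (median -0.07) and from -0.15 to 0.38 in HGI (median 0.15). No LGI mouse was above the HGI median, and the difference was 0.21 ± 0.08 (adjusted p = 0.56). Cenpa, the histone that marks centromeres, differed by 0.18 ± 0.11, with HGI 9 the lowest mouse of all and HGI 3 the highest. Its second probe, detected on 7 arrays, differed by -0.02.

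The motors and bundling proteins of the spindle held both the clearest separation and the members that went the other way. Kif20a, a kinesin needed for cytokinesis, ran from -0.19 to 0.28 in LGI with a median of -0.06. In HGI it ran from 0.12 to 0.64 with a median of 0.27, and all 9 HGI mice lay above the LGI median. LGI 7 alone among the LGI mice was above 0.08, so the groups overlapped through that mouse. The difference was 0.33 ± 0.08, a 1.26-fold ratio, adjusted p = 0.52. A second Kif20a probe, also detected on all arrays, differed by 0.17 ± 0.10. Nusap1, which bundles spindle microtubules near chromosomes, ran from -0.21 to 0.02 in LGI (median -0.07) and from -0.12 to 0.54 in HGI (median 0.19). HGI 9 was the only HGI mouse below 0.10, and the difference was 0.31 ± 0.08, adjusted p = 0.52. The Nusap1 probe was well above background in 2 LGI and 7 HGI mice, so its ratio in most LGI mice rests on signal near background. Its other probe, detected in 2 mice of each diet, differed by -0.07.

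**Figure D3:**
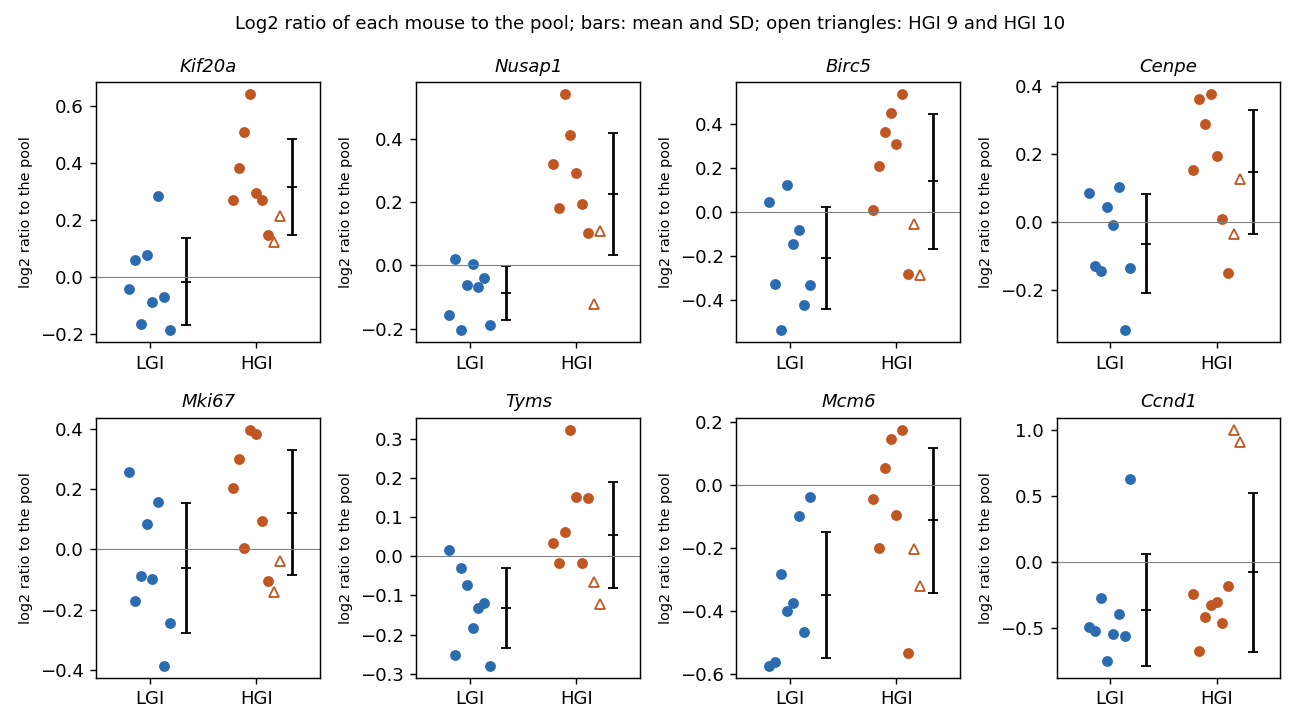
Log2 ratio to the pool (y axis) in each mouse for 8 members, by diet, with the mean and SD as bars and HGI 9 and HGI 10 as open triangles. The groups overlap in every panel, least for Kif20a and Nusap1, and the high HGI values of Ccnd1 are those of HGI 9 and HGI 10.

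Prc1, which bundles the central spindle, differed by 0.11 ± 0.06, and Tpx2, which activates Aurka on the spindle, by 0.06 ± 0.11. Racgap1, part of the centralspindlin complex that positions the cleavage furrow, differed by 0.13 ± 0.09. Kif23, its motor partner, had the most negative difference of all members: it ran from -0.14 to 0.29 in LGI (median -0.04) and from -0.22 to 0.07 in HGI (median -0.08). The groups overlapped widely, and the difference was -0.11 ± 0.07, adjusted p = 0.76. A second probe for Kif23 differed by 0.22 ± 0.09, so the direction of this gene depends on the probe. Both probes were dim, being detected on 9 and 10 of 17 arrays. Ect2, the exchange factor recruited by centralspindlin, differed by -0.06 ± 0.07 and by 0.13 on a second probe detected on 4 arrays. The chromosome motor Kif4 differed by -0.05 ± 0.07 and by 0.05 on a second probe detected on 4 arrays. The 3 members with a negative value among the mitotic genes were thus all measured by probes detected on fewer than 17 arrays.

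Mki67 and the genes of mitotic exit had differences of 0.13 to 0.18, none past the threshold. Mki67, which coats mitotic chromosomes and is the antigen of Ki-67 staining, ran from -0.39 to 0.26 in LGI with a median of -0.09 and from -0.14 to 0.40 in HGI with a median of 0.09. HGI 4 was highest and LGI 8 lowest, 7 of 9 HGI mice lay above the LGI median, and 2 of 8 LGI mice above the HGI median. Its difference was 0.18 ± 0.10 (adjusted p = 0.67), and a second probe gave 0.16 ± 0.11. Cdc20, the activator of the anaphase-promoting complex, differed by 0.14 ± 0.11, and Ube2c, the ubiquitin-conjugating enzyme of that complex, by 0.13 ± 0.09. The adjusted p of these and of all other members not given one lay between 0.72 and 0.98.

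The MCM helicase subunits, which load as one ring of 6 proteins before S phase, had differences from -0.01 to 0.24, none past the threshold. Mcm6 ran from -0.57 to -0.04 in LGI with a median of -0.39 and from -0.53 to 0.18 in HGI with a median of -0.09. 8 of 9 HGI mice lay above the LGI median, HGI 6 was highest, and the difference was 0.24 ± 0.10, adjusted p = 0.59. Mcm2 ran from -0.48 to 0.04 in LGI and from -0.40 to 0.12 in HGI, and its difference was 0.06 ± 0.10. Mcm3 and Mcm5 differed by 0.09 ± 0.08 and 0.08 ± 0.11, and Mcm4 and Mcm7 by -0.01 ± 0.06 and -0.01 ± 0.07. A second, less often detected probe of Mcm3 differed by -0.06. Without HGI 9 and HGI 10 all 6 were above 0, from 0.01 for Mcm2 to 0.28 for Mcm6. No test of Mcm6 against the other subunits was made. Pcna, the clamp that holds DNA polymerase on its template, ran from -0.17 to 0.46 in LGI (median 0.15) and from 0.08 to 0.54 in HGI (median 0.18), a difference of 0.06 ± 0.08.

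Among the enzymes that supply nucleotides, Tyms, which makes thymidylate, had the smallest p. It ran from -0.28 to 0.02 in LGI with a median of -0.13 and from -0.12 to 0.32 in HGI with a median of 0.03. All 9 HGI mice lay above the LGI median and no LGI mouse above the HGI median, while the groups overlapped between -0.12 and 0.02. The difference was 0.19 ± 0.07, adjusted p = 0.54. Its 2 other tested probes differed by 0.09 ± 0.07 and -0.04 ± 0.06, and the mean over its probes was 0.08. The ribonucleotide reductase subunits followed less closely: Rrm2, the subunit made in S phase, ran from -0.12 to 0.21 in LGI and from -0.06 to 0.79 in HGI with medians of 0.14 and 0.15, a difference of 0.12 ± 0.10 that rests on high HGI mice such as HGI 6. Rrm1, the large subunit, ran from -0.25 to 0.18 and from -0.34 to 0.51, a difference of 0.07 ± 0.09. Tk1, the salvage kinase for thymidine, differed by 0.09 ± 0.10.

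The G1 cyclins, which act before S phase, both had a difference above 0. Ccnd1, the D-type cyclin that couples growth signals to the cycle, ran from -0.75 to 0.63 in LGI (median -0.51) and from -0.67 to 1.00 in HGI (median -0.30), a difference of 0.28 ± 0.22 (adjusted p = 0.79). Its 3 highest mice were HGI 9 (1.00), HGI 10 (0.91) and LGI 9 (0.63), the arrays with the highest means of the epididymis or cilia genes, and without HGI 9 and HGI 10 the difference was -0.01 ± 0.15. Without all 3 it was 0.13 ± 0.08, without HGI 9 alone 0.15, and without LGI 9 alone 0.43. Ccne1, the E-type cyclin of S phase entry, ran from -0.21 to 0.24 in LGI and from -0.11 to 0.41 in HGI, and its difference was 0.10 ± 0.08, and 0.12 without those 2 arrays.

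Leaving out HGI 9 and HGI 10 raised both medians and called no member. Among mice, HGI 10 had the lowest mean over the mitotic members in HGI (-0.02) and over the replication members (-0.10), and HGI 9 lay at -0.01 and -0.02. Without both, the mitotic median was 0.18, with 17 of 20 above 0, and the replication median was 0.15, with 11 of 11 above 0, while the median of all genes was 0.00. 14 members were higher at an unadjusted p under 0.05, where 5.04% of all genes were, and 0 of 18134 genes (0%) were called as higher. Nusap1 then differed by 0.38 ± 0.07 (adjusted p = 0.19), Kif20a by 0.38 ± 0.08 (adjusted p = 0.27) and Birc5 by 0.44 ± 0.12 (adjusted p = 0.46). Racgap1 moved from 0.13 to 0.22, Mcm3 from 0.09 to 0.17, Rrm1 from 0.07 to 0.16 and Cenpa from 0.18 to 0.29, while Cdc20 moved from 0.14 to 0.05 and Mcm2 from 0.06 to 0.01. The part of epididymal or seminal vesicle RNA in the members' values of HGI 9 and HGI 10 was not tested.

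The order in which arrays were scanned splits them in brightness, and the members' medians were above 0 on both sides. All arrays were scanned on 1 day. The 8 scanned first, 4 of each diet, had median Cy5 signals of 165 to 185, and the 9 scanned later, 4 LGI and 5 HGI, of 127 to 155. The mitotic median was 0.10 within the first 8 and 0.16 within the later 9, and the replication median 0.08 and 0.09. Kif20a differed by 0.28 and 0.38, Nusap1 by 0.32 and 0.32, Birc5 by 0.38 and 0.32, Mcm6 by 0.20 and 0.29, and Tyms by 0.26 and 0.12. The differences between the 2 sides were not tested. The split was made after the brightness had been seen.

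Other genes of the same pathways, taken from broader lists, had medians closer to 0. Of 52 further mitotic genes 30 were tested, 20 of these were above 0 with a median of 0.06, and 0 were called. Their smallest p values belonged to Spc25, a subunit of the NDC80 kinetochore complex (0.25 ± 0.08), Stmn1, which destabilizes microtubules (0.52 ± 0.18), and Incenp, the scaffold of the passenger complex (0.21 ± 0.09). Of 46 further replication genes 37 were tested and 29 were above 0, with a median of 0.05. Dbf4, the activator of the Cdc7 kinase, differed by 0.21 ± 0.09 on a probe detected in 1 LGI and 7 HGI mice. The difference was 0.12 ± 0.05 for Rfc5, of the clamp loader, and 0.22 ± 0.11 for Gmnn, which blocks a second round of licensing. Of 12 drivers of G1 and S phase 10 were tested and 6 were above 0 (median 0.03): Myc differed by 0.18 ± 0.10, E2f1 by -0.13 ± 0.08 and Ccnd2 by -0.12 ± 0.10. Of 14 cell cycle inhibitors 13 were tested and 8 were above 0 (median 0.03). Cdkn1a, the p53 target p21, differed by 0.36 ± 0.15 and Ccng1, another p53 target, by 0.23 ± 0.10, while Cdkn1c, or p57, differed by -0.29 ± 0.13. Without HGI 9 and HGI 10, 23 of 30 further mitotic genes (median 0.08), 30 of 37 replication genes (0.05), 6 of 10 drivers (0.02) and 9 of 13 inhibitors (0.10) were above 0. None of these 4 lists held a called gene, and no list was tested against other genes.

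Macrophage markers, too, were mostly above 0. Of 18 such genes, all tested, 17 were above 0, with a median difference of 0.19 and 0 called, and without HGI 9 and HGI 10 16 were above 0 with the same median. Their mean log2 ratio ran from -0.33 to -0.05 in the LGI mice and from -0.14 to 0.38 in the HGI mice. HGI 4 was highest both in this mean and in the mean of the mitotic members (0.32), and HGI 7 was low in all 3 lists, at -0.14 for the macrophage markers, -0.01 for the mitotic and -0.05 for the replication members. Other mice did not match: LGI 8 had the highest LGI macrophage mean (-0.05) but the lowest LGI mitotic (-0.13) and replication (-0.13) means. HGI 1 was at -0.11 for the macrophage markers, 0.06 for the mitotic and 0.045 for the replication members. No relation between these means was tested. At an unadjusted p under 0.05 in limma's test, 6 of the 18 were higher, where 3.96% of all genes were. The markers of mesothelium, the cell layer that covers the depot, lay the other way: 0 of 7 were above 0, with a median of -0.21. At the same threshold 4 of these 7 were lower, where 3.78% of all genes were. So were 2 of 9 adipocyte, 2 of 6 germ cell and 1 of 8 endothelial markers. Without HGI 9 and HGI 10 the mesothelial median was -0.24, again with 0 of 7 above 0. The adipocyte markers had a median difference of -0.16 over 9 genes, and of -0.14 without those 2 arrays. The endothelial median changed sign, from -0.03 with 3 of 8 above 0 to 0.07 with 6 of 8 above 0 without the 2 arrays. The fibroblast and progenitor median went from 0.06 with 7 of 9 above 0 to 0.13 with 6 of 9 above 0. The lymphocyte median was 0.00 over 12 genes in both fits, and the germ cell median was -0.02 over 6 genes and -0.06 without the 2 arrays. None of these lists held a called gene. Their part in the members' differences was not tested. The fit below with Adgre1 as a covariate adjusts for that 1 gene only, whose own difference was 0.09 ± 0.11.

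**Figure D4:**
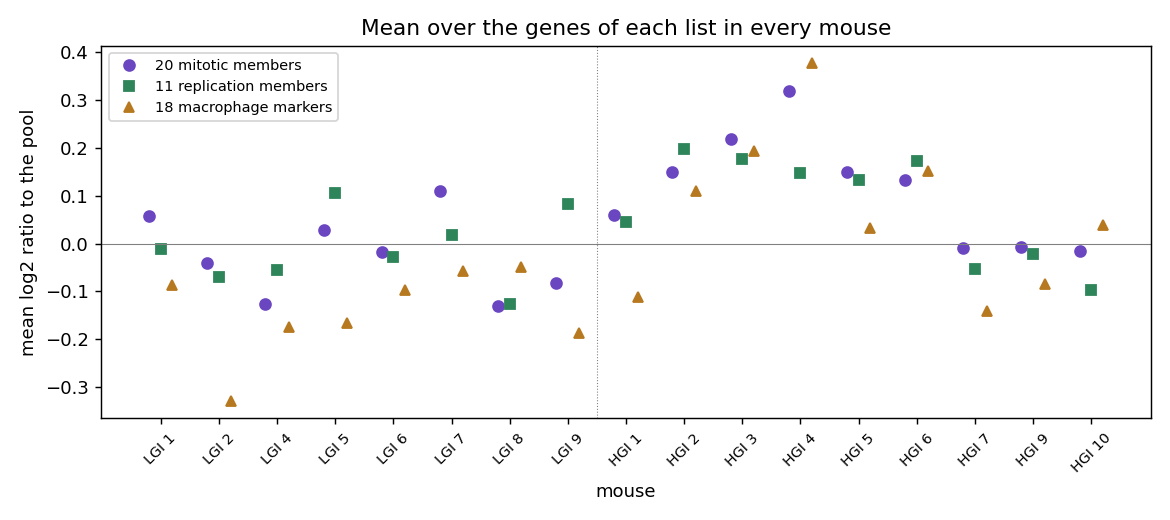
Mean log2 ratio to the pool (y axis) over the 20 tested mitotic members, the 11 replication members and 18 macrophage markers in each of the 17 mice, LGI left and HGI right of the dotted line. The mitotic mean runs from -0.13 to 0.11 in LGI and from -0.02 to 0.32 in HGI, and HGI 4 is highest in the mitotic and macrophage means. Among the LGI mice, LGI 8 is highest in the macrophage mean and lowest in the mitotic mean.

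Between mice, 31 of 33 members had a positive correlation with Adgre1, the F4/80 antigen of macrophages (Emr1 in older naming), and 1 of 33 passed the test. Adgre1 itself ran from -0.10 to 0.30 in LGI and from -0.13 to 0.83 in HGI, and its difference between the diets was 0.09 ± 0.11 (adjusted p = 0.86). Over the 15 arrays without HGI 9 and HGI 10, the correlation of the 20 mitotic members with Adgre1 had a median of 0.56 and was positive for 20 of 20. For the replication members the median was 0.44, with 10 of 11 positive. The median of all genes was 0.01, and 51.5% of them were positive. Among the mitotic members r ran from 0.03 for Ect2, with Racgap1 at 0.15 and Tpx2 at 0.18, to 0.80 for Ccna2. Median r was 0.56 for the other macrophage markers (15 of 17 positive) and 0.37 for the endothelial ones (7 of 8). It was 0.33 for the further mitotic genes (27 of 30) and 0.14 for the further replication genes (24 of 37). For fibroblasts and progenitors it was 0.25 (5 of 9), and for lymphocytes 0.11 (7 of 12). The adipocyte markers had a median r of -0.09 (2 of 9) and the mesothelial markers of -0.48 (0 of 7). Genes on 1 array share its RNA and its depth, so these counts are a description. By limma's slope test over all genes, Ccna2 was called (r = 0.80, Spearman's rho = 0.79, adjusted p = 0.0293), where 0.524% of 18133 genes were called as positive and 0.0551% as negative. Its permutation p was 0.00026 for r and 0.00075 for rho over 100000 resamples, two-sided, before adjustment, and 33 members were examined. Birc5 (r = 0.73, rho = 0.77, adjusted p = 0.0511), Cenpe (r = 0.76, rho = 0.75, adjusted p = 0.0682), Kif20a (r = 0.72, rho = 0.67, adjusted p = 0.0706), Ccnb2 (r = 0.71, rho = 0.47, adjusted p = 0.0706) and Ube2c (r = 0.74, rho = 0.65, adjusted p = 0.0739) were not called but lay nearest to the threshold. Their unadjusted permutation p values for r were 0.00078, 0.00075, 0.00142, 0.00437 and 0.00143, and for rho 0.00115, 0.00226, 0.00742, 0.0794 and 0.0104. Within LGI alone r was -0.10 for Ccnb2. Of the broader mitotic list Cdca3 (r = 0.86, rho = 0.70, adjusted p = 0.0197) and Cenpf (r = 0.78, rho = 0.64, adjusted p = 0.0499) were called. Of the 17 macrophage markers other than Adgre1, 4 were called: Cd68, Lyz2, Mpeg1 and Trem2. Over these 17 markers r ran from -0.32 to 0.93.

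The call of Ccna2 ended when any 1 of 4 arrays was left out, while its slope stayed above 0. The slope was 0.84 ± 0.17 (SE), in log2 units of Ccna2 per log2 unit of Adgre1. The arrays farthest from the median of Adgre1 were HGI 4, at 0.83, and LGI 8, at -0.10, and without both r was 0.67 for Ccna2, 0.69 for Birc5, 0.64 for Cenpe, 0.49 for Ube2c and 0.36 for Mki67, with 0 members called. The slope of Ccna2 was then 0.85. Leaving out 1 array at a time, the call of Ccna2 ended without LGI 2 (adjusted p = 0.0598), LGI 8 (0.0931), HGI 3 (0.0918) or HGI 4 (0.16), where its slope was 0.84, 0.73, 0.81 and 1.04. Without HGI 3, Cdc20 was called in its place. Without LGI 5, Ccnb2 was called beside Ccna2, and without LGI 9 or HGI 6 Birc5 was. Without HGI 1 the test called 5 members: Birc5, Ccna2, Cenpa, Cenpe and Kif20a. Calls over all genes moved as well. Of 18133 genes, 276 were called without HGI 1, against 105 in the fit that kept it. The counts were 91 without LGI 5, 152 without LGI 9 and 145 without HGI 6. They were 59 without LGI 2, 61 without LGI 8, 42 without HGI 3 and 32 without HGI 4. With diet as a covariate 0 members were called, where 0.105% of genes were, and Ccna2 had a slope of 0.73 ± 0.18 and an adjusted p of 0.15. Within LGI alone the mitotic median of r was 0.59, with 14 of 20 positive, and within the 7 other HGI mice 0.61, with 19 of 20 positive, with 0 genes called in either. Mcm4 (r = -0.22, rho = -0.11, permutation p = 0.432 and 0.696) and Ccnd1 (r = -0.13, rho = -0.16, permutation p = 0.605 and 0.566) were the 2 members with a negative r.

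**Figure D5:**
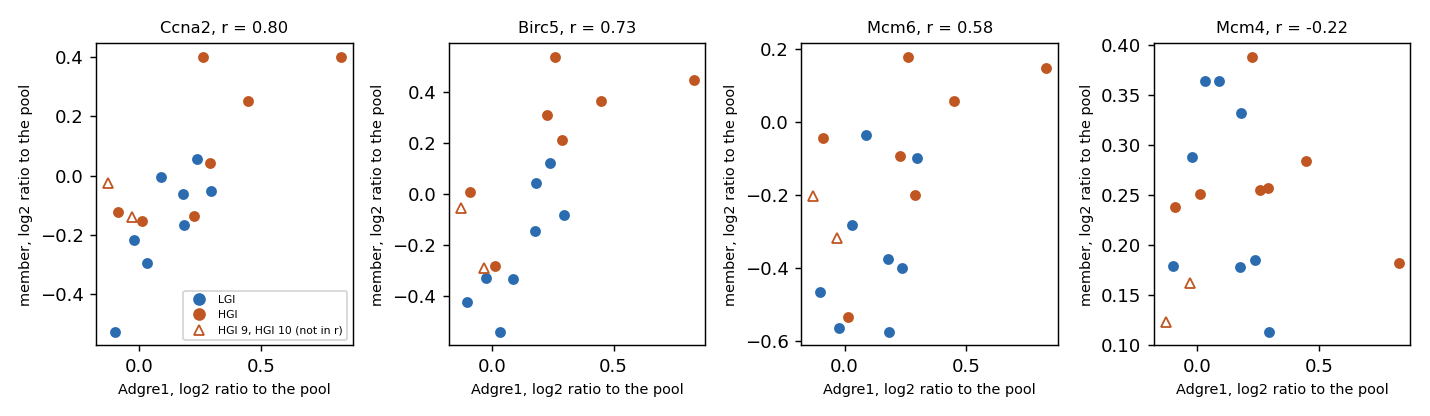
Log2 ratio of Ccna2, Birc5, Mcm6 and Mcm4 (y axes) against that of Adgre1 (x axis) in each mouse, LGI blue and HGI orange; r is over the 15 filled points, and the open triangles are HGI 9 and HGI 10. Ccna2, Birc5 and Mcm6 slope upward, with HGI 4 alone at the right at 0.83, and Mcm4 does not.

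Adgre1 was also taken as a covariate in the comparison of the diets over all 17 arrays. The mitotic median was 0.11, with 16 of 20 above 0, and the replication median 0.05, with 9 of 11 above 0. Kif20a then differed by 0.29 ± 0.06, Nusap1 by 0.28 ± 0.07, Birc5 by 0.27 ± 0.09, Mcm6 by 0.19 ± 0.09 and Tyms by 0.16 ± 0.06, none of them called.

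How far the members varied together between mice was described by pairwise correlation. Over the same 15 arrays, the mean pairwise correlation was 0.30 among the 20 mitotic members, 0.42 among the 13 detected on all arrays and 0.22 among the replication members, and 0.23 between the 2 sets, while over all genes tested it was 0.00. Taken as deviations from each diet's mean, these values were 0.24, 0.28, 0.11 and 0.13. Kif20a, Cenpe, Birc5 and Cdca8 had the highest mean correlation with the other mitotic members (0.51, 0.50, 0.48 and 0.48), and Ect2 the lowest among them (-0.03). Among the replication members, Tyms (0.39), Mcm5 (0.34) and Mcm6 (0.34) correlated most with the mitotic members and Mcm4 least (-0.12). These correlations are descriptions over shared arrays, with no test of the difference between the sets.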

How the data were processed

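RNA of 17 mice (8 LGI, 9 HGI) was measured on 2-colour Agilent arrays; the design text speaks of 2 further arrays that the authors excluded. Per the labels, 500 ng of RNA of each mouse was labelled with both dyes and the Cy3 products were pooled as reference. The deposited scanner files hold spot intensities, mean and local background, from Agilent Feature Extraction (version 9.1.3.1 per the file headers, 9.5.1.1 per the submitters' processing notes), and processed signal intensities. The authors' deposited log2 values, with no scale or centring stated, served as an alternative.

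Intensities were corrected by normexp (offset 50) and loess within each array in limma 3.58.1 (R 4.3.3, data.table version 1.17.8), leaving out 2256 control spots of 43790 and flagged spots, and spots of a probe were averaged. Of 41174 probes, 25515 were well above background on at least 8 arrays and were tested, the brightest per gene. Members and other list genes were matched by the array's gene names or a listed older name. The remaining probes took their names from a RefSeq table (GRCm38.p6, names only) where it held one. The diets were compared by lmFit and eBayes over all arrays with no covariate, with Benjamini-Hochberg adjustment over 18134 genes and a threshold of 0.05. The relation with Adgre1 used the same test on its slope. The fit was tested on simulated data with independent genes and a shift larger than any member's difference. That run does not tell how often differences of the size given here would be called. Plots used Python 3.11.15 and matplotlib 3.10.9.

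Members, lists and tests were chosen with earlier results of these data known. Values by mouse are given for the 10 members with the smallest p, for 12 members chosen by name where tested and for the most negative one, and 3 genes of each broader list by smallest p. The labels number the samples as replicates and say no more of each, so p-values reflect only the spread among them. Samples of the 2 diets share 7 replicate numbers, but the deviations of same-numbered samples correlated at -0.38 to 0.26, so the numbers were not taken as pairs. Alternatives covered the background correction, normalization, filter, probe rule, array weights, left-out arrays and scan order.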

Additional observations from a re-analysis of the deposited data

Results flagged for a closer look

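In 6 of 68 groups checked (33 members and Adgre1 in each diet), 1 mouse lay far from the others by Dixon's criterion, where chance gives about 1 in 20 groups. All 6 are LGI mice. Tpx2 was 0.50 in LGI 2, with the next LGI mouse at 0.04. Prc1 was 0.18 in LGI 1, with the next at -0.05. Rrm1 and Rrm2, the ribonucleotide reductase subunits, were both low in LGI 8, at -0.25 and -0.12, with the next mice at -0.02 and 0.07. Ccnd1 was 0.63 in LGI 9, with the next at -0.27, and Ccne1 was -0.21 in LGI 6, with the next at 0.03. LGI 8 was also the lowest mouse for Mki67, Ccna2 and Cenpe.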

How the results depend on the processing

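No member was called under any of the 18 alternatives or without any 1 array. The 10 members with the smallest p kept their direction wherever they were tested, which for Nusap1 leaves out the filters on 12 and on all 17 arrays. These 10 were picked by p in the main fit of the same arrays, so their kept direction is no separate support. Over all genes, 0 were called, but 1 was with Cy5 intensities alone, 1 with array weights, and 0 to 3 when 1 array was left out (3 without LGI 7). The mitotic median of 0.14 ranged from 0.11 to 0.17 and the replication median of 0.08 from 0.04 to 0.12 over the fits without 1 array each, and processed signals gave 0.30 and 0.20. With the authors' deposited values the medians were 0.11 (14 of 15 above 0) and -0.01 (4 of 10). With median centring the median of all genes was 0.02 and 58.9% were above 0, and the medians were 0.15 and 0.10. With the replicate block on the 14 arrays that share a number, the mitotic and replication medians were 0.14 and 0.10 and 0 members were called, as in the same arrays without the block. 2 of 7 LGI samples correlated best with their own number.

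Of the 33 members, 15 changed sign in some alternative, and the cause was not tested. With no filter Ect2 was 0.126, on another probe. Processed signals gave Plk1 -0.052, Cy5 alone Racgap1 0.00 and Mcm7 0.055, and Adgre1 as covariate Plk1 -0.002. For Mcm4 and Mcm7, median centring gave 0.013 and 0.016, array weights 0.017 and 0.016, the fit without HGI 9 and HGI 10 0.015 and 0.016 (with Ccnd1 at -0.01), and the fit also without LGI 9 0.031 and 0.028 (with Ccnb1 at -0.022). The authors' deposited values gave Aurka -0.021, Mcm2 -0.068, Mcm3 -0.139, Rrm1 -0.035, Tk1 -0.004 and E2f1, from the broader lists, 0.089. The mean over probes gave Kif23 0.056. The 14 arrays gave Ccnb1 -0.007 and Mcm2 -0.019 with and without the block. The first 8 scanned gave Aurka -0.009, Tpx2 -0.002, Mcm4 0.022 and Rrm1 -0.082, and the later 9 Ccnb1 -0.045 and Kif4 0.028. Leaving out 1 array at a time, Ccnb1 ranged from -0.004 to 0.07, Plk1 from -0.011 to 0.058, Mcm4 from -0.032 to 0.004 and Mcm7 from -0.053 to 0.025. In the relation with Adgre1, 1 member was called at first, where 105 of 18133 genes were. Over all 17 arrays 3 members and 196 genes were called. With Cy5 alone the counts were 6 members and 233 genes, and with median centring 10 and 643. Under median centring the median r of all genes was 0.13. With the macrophage list in place of Adgre1, 3 members and 216 genes were called, and Ccna2 was not (adjusted p by limma = 0.0741). With diet as covariate the test called 0 members and 19 genes. Within LGI, and within HGI without HGI 9 and HGI 10, 0 members and 0 genes were called. The same held without the farthest 2 arrays and with the authors' values. Without 1 array each, 0 to 5 members and 32 to 276 genes were called. Scan order, the fit without LGI 9, the macrophage list and leaving out arrays from the relation were chosen after seeing the data.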
